A study of Mus musculus with 14 samples.

Results

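Expression of 10 serotonin receptor genes (Htr1a, Htr1b, Htr1d, Htr1f, Htr2a, Htr2c, Htr3a, Htr4, Htr5a and Htr7) was examined in hippocampal RNA of neonatal mice. The genes were chosen by symbol among the 36118 genes of the deposited table, with earlier results of these data known. All 10 were among the 16637 genes that passed the filter on low counts. Each of the 10 had at least 20 counts in every library, so none passed through 1 group alone.

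The samples were 14 libraries, 1 per mouse, from 4 wildtype mice in room air (WT-RA), 4 wildtype mice in hyperoxia (WT-O2), 3 knockout mice in room air (KO-RA) and 3 knockout mice in hyperoxia (KO-O2). The knockout mice lacked gasdermin D, the pore-forming protein of pyroptosis, in all tissues, through a CRISPR deletion in an exon of Gsdmd, and wildtype littermates were the controls. The breed on the labels was C57/BL6 for both genotypes. Pups stayed in room air or in 85% O2 from postnatal day 1 to 14, and the hippocampus was taken on day 15. Mice carry the numbers of their labels: GSD398, GSD399, GSD400 and GSD401 in WT-RA, GSD404, GSD405, GSD406 and GSD408 in WT-O2, GSD489, GSD490 and GSD496 in KO-RA, and GSD491, GSD494 and GSD495 in KO-O2. The numbers of the genotypes do not overlap, so genotype and anything else that went with the number ranges cannot be told apart. For GSD408 the title gave hyperoxia and the treatment field room air, and the title was used.

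Serotonin reaches the hippocampus through axons of the raphe nuclei in the brainstem, and the receptors sit on the cells of the hippocampus itself and on incoming axons, whose receptor mRNA stays in the distant cell bodies. The HTR1 receptors, and in part HTR5A, couple to Gi/o proteins and lower cyclic AMP, the HTR2 receptors couple to Gq and phospholipase C, and HTR4 and HTR7 couple to Gs and raise cyclic AMP. HTR3A is a subunit of a cation channel opened by serotonin and marks a class of cortical and hippocampal interneurons. In the mouse, Htr1a and Htr5b are known from hippocampal pyramidal cells, Htr1b and Htr1d from striatal and other projection neurons, and Htr2c from many neurons and, at a very high level, from the epithelium of the choroid plexus.

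The promoters of Htr1a, Htr1b, Htr1d and Htr2a are shown because these were the receptors whose genotype call did not depend on any 1 mouse. Each line is the 250 bases before the RefSeq transcription start on mouse assembly GRCm38.p6, 5′ to 3′ on the gene's strand: chr13:105443443-105443692 on the plus strand for Htr1a, chr9:81633833-81634082 on the minus strand for Htr1b, chr4:136423274-136423523 on the plus strand for Htr1d (the first of 2 starts listed), and chr14:74640624-74640873 on the plus strand for Htr2a. Capitals mark a GC box (GGGCGG, or CCGCCC where it reads on the opposite strand) or a CCAAT box (CCAAT, or ATTGG on the opposite strand).
Htr1a: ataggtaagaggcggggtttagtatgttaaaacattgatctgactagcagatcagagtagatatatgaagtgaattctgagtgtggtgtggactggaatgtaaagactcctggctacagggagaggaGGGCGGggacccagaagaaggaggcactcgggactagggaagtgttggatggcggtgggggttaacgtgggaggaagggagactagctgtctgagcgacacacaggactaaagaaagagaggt
Htr1b: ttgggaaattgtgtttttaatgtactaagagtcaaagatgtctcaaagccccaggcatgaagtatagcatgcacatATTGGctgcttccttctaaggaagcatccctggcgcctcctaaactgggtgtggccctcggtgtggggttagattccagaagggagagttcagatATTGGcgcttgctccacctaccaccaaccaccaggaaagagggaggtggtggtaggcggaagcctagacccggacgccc
Htr1d: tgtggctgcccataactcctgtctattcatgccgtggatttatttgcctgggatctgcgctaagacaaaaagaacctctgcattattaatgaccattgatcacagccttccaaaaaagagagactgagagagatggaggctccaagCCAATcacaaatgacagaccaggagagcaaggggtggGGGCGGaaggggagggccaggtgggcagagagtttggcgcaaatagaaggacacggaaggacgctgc
Htr2a: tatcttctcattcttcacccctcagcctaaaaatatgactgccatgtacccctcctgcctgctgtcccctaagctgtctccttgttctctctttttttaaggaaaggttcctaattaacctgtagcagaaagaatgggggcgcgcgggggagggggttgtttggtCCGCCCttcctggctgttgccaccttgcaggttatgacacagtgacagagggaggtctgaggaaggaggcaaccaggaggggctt
Htr1a and Htr2a each held 1 GC box and no CCAAT box, Htr1b held 2 CCAAT boxes and no GC box, and the Htr1d window shown held 1 of each. The window before the other Htr1d start held 3 GC boxes and no CCAAT box. Of 32851 RefSeq mouse promoters of this length, 32.7% held the GC box and 33.8% the CCAAT box. None of the 4 held TATAAA, found in 12.4% of promoters, or the cyclic AMP response element TGACGTCA, found in 1.55%. Promoters were listed for 8 of the 10 receptors, without Htr3a and Htr4. Both strands were searched for all 4 motifs, none of which overlapped another in these windows.

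The libraries summed to between 27272270 and 28257496 estimated counts, so depth differed little between mice. The receptors were covered unevenly. Htr2c had 1226 to 4217 counts per library, Htr1a 329 to 685, Htr2a 205 to 764, Htr5a 284 to 613, Htr1b 224 to 538, Htr7 214 to 468, Htr3a 113 to 299 and Htr4 99 to 259. Htr1f (32 to 110) and Htr1d (20 to 116) were the shallowest, and their values carry the most counting error. Values are given as CPM, the count of a gene scaled to the TMM-adjusted size of its library. Gsdmd transcripts were read as the check of the genotype labels. They gave 41 to 63 counts in the 8 wildtype libraries and 22 to 42 in the 6 knockout libraries. The deposited gene total, which includes exons outside the deletion, thus did not fall to 0 in any knockout mouse. Exons were not counted apart. By qRT-PCR the paper reported no measurable transcript in knockout brains, with data not shown. In CPM the genotypes did not overlap within either exposure. The call for Gsdmd was passed in hyperoxia (log2 fold change −0.58 ± 0.19 SE, edgeR quasi-likelihood F-test, Benjamini-Hochberg adjusted p 0.0962) and not in room air (−0.46 ± 0.20 SE, adjusted p 0.168).

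Because the genes differ in length, levels were compared between receptors only as CPM per kilobase of merged exons (gene models of GENCODE M21). On that scale Htr2c was the most abundant receptor, with a mean of 9.13 CPM per kb over the 14 libraries. Htr1a (3.85), Htr3a (3.83), Htr7 (3.50), Htr5a (2.85), Htr1b (2.75) and Htr2a (2.65) followed, and the ranges of all these over mice overlapped. Htr4 (1.30), Htr1f (0.748) and Htr1d (0.644) were lowest, and their ranges overlapped as well. Htr2c ranked first in 12 of 14 mice. The exceptions were WT-RA mouse GSD400, where Htr2a stood at 4.82 and Htr2c at 4.64 CPM per kb, and KO-RA mouse GSD489, where Htr1a stood at 5.67 and Htr2c at 5.01. The order below Htr2c was not the same in every group: Htr2a was second in WT-RA with 3.89 ± 0.826 CPM per kb (SD, n = 4) and seventh in KO-O2 with 1.54 ± 0.269 (SD, n = 3), whereas Htr1a moved from sixth in WT-RA (3.06 ± 0.358) to second in KO-RA (4.96 ± 0.667). These places describe the group means, and most neighbours in the order lay within each other's spread.

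**Figure D1:**
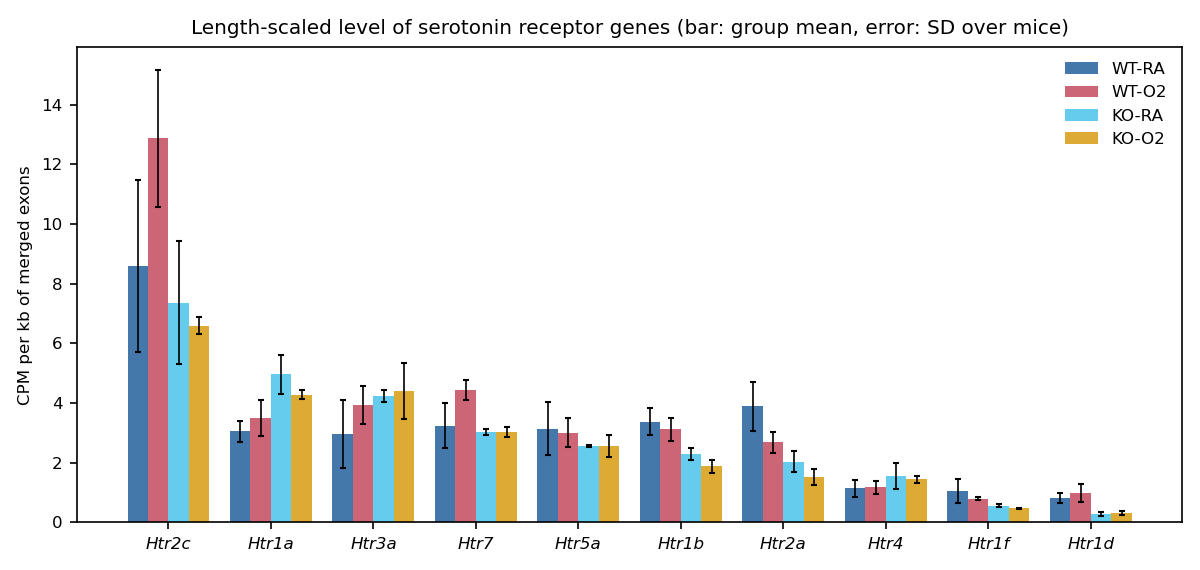
Mean level of each receptor gene in CPM per kilobase of merged exons (vertical axis, starting at 0) in WT-RA and WT-O2 (4 mice each) and KO-RA and KO-O2 (3 mice each), with error bars of 1 SD over mice and genes ordered by their mean over all mice. Htr2c reached 12.9 in WT-O2 and 6.59 in KO-O2, while Htr1d lay at or below 0.986 in every group.

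In the edgeR fit of all libraries, every receptor call came from the genotype comparisons. In room air, Htr1b, Htr1d, Htr1f and Htr2a were lower and Htr1a was higher in knockout than in wildtype hippocampus, and in hyperoxia Htr1b, Htr1d, Htr2a, Htr2c and Htr7 were lower in knockout. Calls required a log2 fold change of 0.32 or more in size, p under 0.05 and a Benjamini-Hochberg adjusted p under 0.1 in edgeR's quasi-likelihood F-test across all genes. For KO-RA against WT-RA this called 1 of 10 receptors higher and 4 lower, beside 3.75% of all genes tested called higher and 6.7% called lower. For KO-O2 against WT-O2 it called 0 higher and 5 lower, beside 2.51% and 4.35% of all genes. Since the receptors were chosen with earlier results of these data known, these shares are given for scale and not as a test. DESeq2 called the same numbers in each direction. The median log2 fold change over the 10 receptors was −0.26 in room air and −0.64 in hyperoxia, beside −0.01 over all genes in both. These medians hold for the 10 only. Outside them, Htr5b was called higher in knockout in room air (1.00) and in hyperoxia (0.67), and Htr6 was called in neither (−0.26 and −0.12). The genotype comparisons share no mice with each other, but both came from 1 fit with a shared estimate of the spread.

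Hyperoxia moved no receptor past the threshold in either genotype in that fit. For WT-O2 against WT-RA edgeR called 0 of 10 receptors, with 3 of 10 at an unadjusted p under 0.05, and DESeq2 called 2 (Htr2a lower and Htr7 higher). Of all genes, 0.349% were called higher and 0.295% lower in that comparison, and 12.2% had an unadjusted p under 0.05. For KO-O2 against KO-RA edgeR and DESeq2 both called 0. The only receptor at an unadjusted p under 0.05 was Htr1b in edgeR and Htr2a in DESeq2, beside 4.86% of all genes in edgeR. Of all genes edgeR called 0.00601% higher and 0.00601% lower. The test of whether the response to hyperoxia differed between genotypes also called 0 receptors in edgeR and in DESeq2, and edgeR called 0% of all genes. Htr1a, Htr2c and Htr7 had an unadjusted p under 0.05 in edgeR, and Htr1a and Htr7 in DESeq2, beside 4.05% of all genes in edgeR. The hyperoxia comparison in wildtype mice shares its WT-RA mice with the room-air genotype comparison and its WT-O2 mice with the other, so the values for 1 receptor in these comparisons are not independent of each other.

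**Figure D2:**
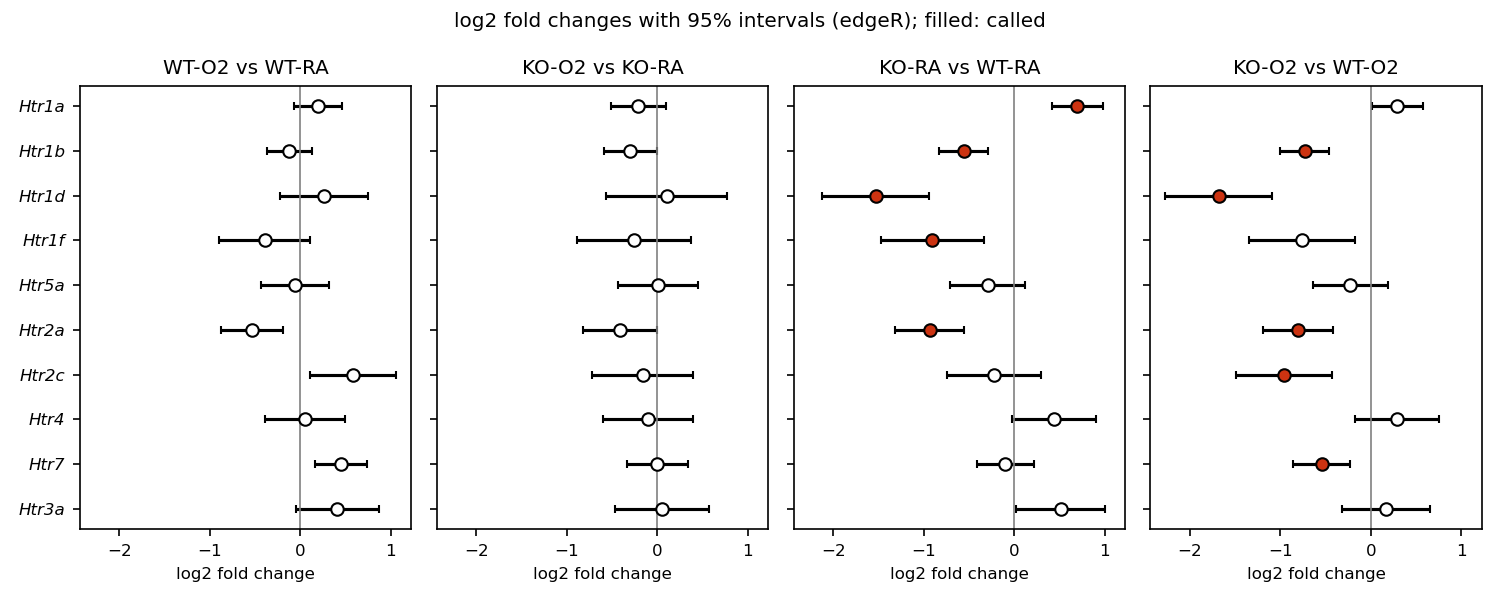
Log2 fold change of each receptor (horizontal axis) with its 95% interval from edgeR in the 4 comparisons, with filled points for receptors that passed the call and a vertical line at 0. No point is filled in either hyperoxia comparison, 5 are filled in each genotype comparison, and Htr1d lies farthest from 0 in both (−1.53 and −1.68).

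Regional markers moved with genotype in the same libraries. All gene lists were chosen with earlier results of these data known, so their counts describe these libraries and are no test against all genes. Of all genes, 3.75% were called higher and 6.7% lower in knockout in room air, and 2.51% and 4.35% in hyperoxia. Of 12 markers of striatal projection neurons, 12 were called lower in knockout in room air and 12 in hyperoxia, and their summed level was 622 to 905 CPM in WT-RA, 431 to 988 in WT-O2, 167 to 278 in KO-RA and 180.3 to 191 in KO-O2. Of 14 hippocampal field markers, 13 were called higher in knockout in room air and 8 in hyperoxia, with summed levels of 727 to 1033, 946 to 1155, 1473 to 1813 and 1544 to 1778 CPM in the same order of groups. Of 12 thalamic markers, 7 were called lower in room air and 6 in hyperoxia, and of 9 deep cortical and subplate markers, 5 and 3 were called lower and 1 and 1 higher. Thalamic markers summed to 220.3 to 1139 CPM in WT-RA, 331 to 831 in WT-O2, 238 to 253 in KO-RA and 251 to 254 in KO-O2. Deep cortical and subplate sums overlapped between genotypes, with 364 to 638, 389 to 425, 399 to 412 and 405 to 438 CPM in the same order. Upper cortical sums did not, with 335 to 431, 336 to 368, 287 to 297 and 303 to 312 CPM. Of 7 cholinergic and septal markers, 1 was called higher and 4 lower in room air, and 1 and 5 in hyperoxia, of 6 upper cortical markers, 1 and 4, then 0 and 2, and of 6 habenular markers, 0 and 1, then 0 and 0. As lists, the hippocampal field markers were detected in every group, and so were those of striatum, thalamus and cortex. Some thalamic markers were near 0 in knockout. Shox2 averaged 0.048 CPM in KO-RA and 0.11 in KO-O2, and Gbx2 0.082 and 0.049. No marker of these lists was called between the exposures in knockout mice, and in wildtype mice hyperoxia lowered Cplx3 (deep cortical and subplate) and Rorb (upper cortical). The part of these markers in the receptor differences was not tested. RNA of whole tissue cannot tell fewer cells of a type from less RNA per cell.

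**Figure D3:**
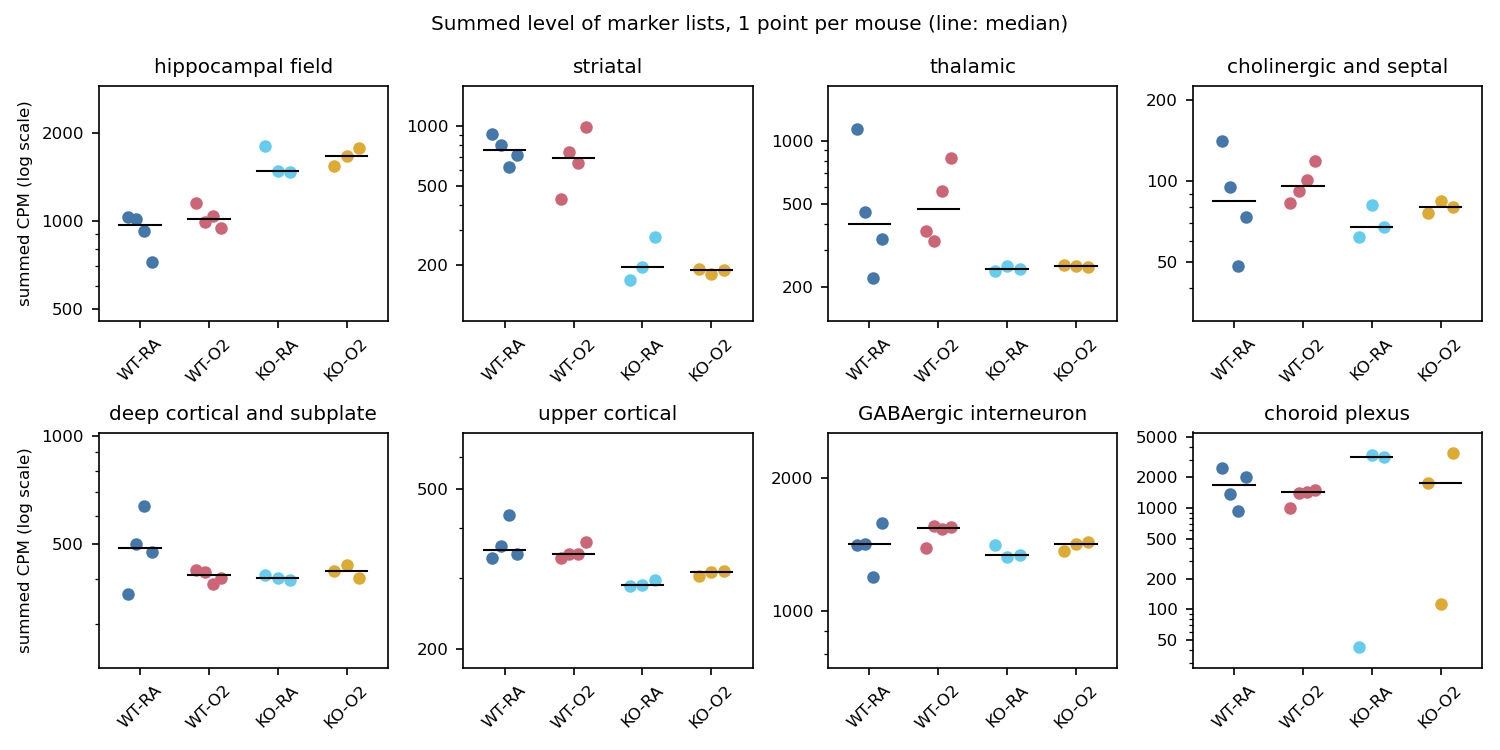
Summed CPM of 8 marker lists, chosen with earlier results of these data known (vertical axes, log scale), 1 point per mouse and a line at each group's median. The striatal sum of every knockout mouse lies below that of every wildtype mouse, the hippocampal field sum of every knockout mouse lies above, and choroid plexus sums run from 42.7 to 3461 CPM within the knockout groups.

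Among the Gi/o-coupled receptors, Htr1a (ENSMUSG00000021721, chromosome 13, 1 coding exon), the inhibitory receptor of pyramidal cell bodies and of raphe neurons, was the only one called higher in knockout. It measured 13.6, 14.1, 11.6 and 15.5 CPM in WT-RA, and 25.4, 19.5 and 21.8 CPM in KO-RA. It measured 18.1, 15.1, 17.5 and 12.0 CPM in WT-O2, and 18.7, 19.95 and 19.0 CPM in KO-O2. The genotypes did not overlap in either exposure, with a wide gap in room air and a narrow gap in hyperoxia. In room air Htr1a was 1.62-fold higher in knockout (log2 fold change 0.70 ± 0.13 SE, edgeR adjusted p 0.00438). In hyperoxia the log2 fold change was 0.29 ± 0.13 SE (1.23-fold) with an adjusted p of 0.251, and the change of the genotype difference between exposures, −0.40 (95% interval −0.81 to −0.00012), had an unadjusted p of 0.0499 and an adjusted p of 1.00. Hyperoxia gave 0.19 ± 0.13 SE in wildtype and −0.21 ± 0.14 SE in knockout mice, and neither passed. The room-air call was made in all 14 fits that each left out 1 mouse, with adjusted p from 0.00131 to 0.0332.

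Htr1b (ENSMUSG00000049511, chromosome 9, 1 coding exon), the terminal autoreceptor and heteroreceptor of many projection neurons, showed the reverse order. Its levels were 14.9, 18.9, 16.1 and 13.9 CPM in WT-RA and 13.8, 16.1, 16.3 and 12.7 CPM in WT-O2. They were 10.8, 9.94 and 11.9 CPM in KO-RA and 8.13, 10.1 and 8.40 CPM in KO-O2. Every knockout mouse lay below every wildtype mouse, in both exposures. Htr1b was 1.47-fold lower in knockout in room air (−0.56 ± 0.13 SE, edgeR adjusted p 0.0117) and 1.66-fold lower in hyperoxia (−0.73 ± 0.13 SE, adjusted p 0.00391), and both calls were made in all 14 fits without 1 mouse. Within knockout mice the exposures overlapped, with a log2 fold change of −0.30 ± 0.14 SE (unadjusted p 0.0469, adjusted p 0.997). Htr1b overlaps an antisense gene, D430036J16Rik, on the opposite strand in GENCODE M21, and since strand use in the counting was not stated, reads of the pair cannot be told apart.

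Htr1d (ENSMUSG00000070687, chromosome 4, 1 coding exon), which is close to Htr1b in sequence and also acts on axon terminals, had the largest genotype fold differences of the 10 receptors. It reached 3.42, 2.64, 2.33 and 2.15 CPM in WT-RA and 2.34, 3.87, 2.34 and 4.07 CPM in WT-O2. It reached 1.15, 0.874 and 0.712 CPM in KO-RA and 0.752, 0.990 and 1.20 CPM in KO-O2. All 6 knockout mice lay below all 8 wildtype mice, at 20 to 32 counts per library against 60 to 116. Htr1d was 2.88-fold lower in knockout in room air (−1.53 ± 0.28 SE, edgeR adjusted p 0.00326) and 3.21-fold lower in hyperoxia (−1.68 ± 0.27 SE, adjusted p 0.00276). Leaving out each mouse in turn kept the call in all 14 fits of both comparisons, and the log2 fold change ran from −1.73 to −1.37 and from −1.85 to −1.52. The striatal marker Drd1 was also lower in knockout in room air, with 24.2 ± 1.34 CPM in WT-RA (SD, n = 4) and 3.70 ± 1.78 in KO-RA (SD, n = 3). Some thalamic and cortical markers were called lower too, and the part of any marker in the Htr1d values was not tested. Exposure gave 0.26 ± 0.23 SE in wildtype and 0.10 ± 0.31 SE in knockout mice, and the groups overlapped.

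Htr1f (ENSMUSG00000050783, chromosome 16, 1 coding exon), a further Gi/o-coupled receptor of cortical and thalamic neurons, was called only in room air. The WT-RA mice held 1.31, 2.78, 3.89 and 2.83 CPM, the widest relative spread of the 10 receptors in that group, and the WT-O2 mice 2.13, 2.15, 1.91 and 2.03 CPM. The KO-RA mice held 1.30, 1.43 and 1.601 CPM and the KO-O2 mice 1.15, 1.247 and 1.24 CPM. In room air GSD398 fell inside the knockout range, while in hyperoxia the genotypes were separate. The room-air difference was 1.87-fold (−0.90 ± 0.26 SE, edgeR adjusted p 0.0442) and was lost with only the 2 groups fitted (adjusted p 0.155) and without GSD400 (0.101), GSD489 (0.153) or GSD490 (0.117). The hyperoxia difference was −0.76 ± 0.27 SE, with an adjusted p of 0.129, and it was called with only its 2 groups fitted (adjusted p 0.0277) and without GSD398 (0.0171) or GSD400 (0.0727), mice of another group whose spread enters the shared estimate. The log2 fold changes of Htr1f in the 2 exposures differed by 0.14 (95% interval −0.67 to 0.95).

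Htr5a (ENSMUSG00000039106, chromosome 5, 2 coding exons), a less studied receptor that lowers cyclic AMP, was called in no comparison. Its lowest and highest levels, 10.3 CPM in GSD398 and 21.7 CPM in GSD400, both came from WT-RA, where the other mice had 17.0 and 18.4 CPM. The WT-O2 mice had 19.2, 16.7, 15.8 and 12.9 CPM, the KO-RA mice 13.9, 13.9 and 13.5 CPM and the KO-O2 mice 15.0, 14.8 and 11.6 CPM. The KO-RA mice lay inside the WT-RA range, and in hyperoxia the genotypes overlapped, with GSD495 below all WT-O2 mice. The log2 fold changes of knockout against wildtype were −0.29 (95% interval −0.70 to 0.12) in room air and −0.23 (−0.64 to 0.19) in hyperoxia. Without GSD398 the room-air difference was called, at −0.46 with an edgeR adjusted p of 0.055.

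Of the Gq-coupled pair, Htr2a (ENSMUSG00000034997, chromosome 14, 3 coding exons), the excitatory receptor of cortical projection neurons and some interneurons, was highest in WT-RA and lowest in KO-O2. Levels were 15.7, 21.9, 27.0 and 22.7 CPM in WT-RA and 12.3, 17.0, 16.0 and 15.0 CPM in WT-O2. They were 12.4, 9.20 and 12.7 CPM in KO-RA and 7.34, 10.3 and 8.21 CPM in KO-O2. Knockout lay below wildtype within each exposure without overlap, although KO-RA and WT-O2 overlapped. Htr2a was 1.91-fold lower in knockout in room air (−0.93 ± 0.18 SE, edgeR adjusted p 0.00426) and 1.75-fold lower in hyperoxia (−0.81 ± 0.18 SE, adjusted p 0.0156), called in all 14 fits without 1 mouse in both. Hyperoxia gave −0.53 ± 0.16 SE in wildtype mice (unadjusted p 0.00452, adjusted p 0.182) and −0.41 ± 0.19 SE in knockout mice (unadjusted p 0.051, adjusted p 0.997). Only GSD398 of the WT-RA mice fell among the WT-O2 values, and without it the wildtype hyperoxia difference was called, at −0.66 with an adjusted p of 0.0469. DESeq2 called it with all mice, at an adjusted p of 0.053. The deep cortical and subplate marker Cplx3 was also lower under hyperoxia in wildtype mice (25.1 ± 9.11 against 9.48 ± 2.35 CPM, SD, n = 4 each, log2 fold change −1.40 ± 0.30 SE, adjusted p 0.0679). It was the only 1 of 9 markers on its list called there. The list sums overlapped, at 364 to 638 CPM in WT-RA and 389 to 425 in WT-O2. The part of Cplx3 in the Htr2a values was not tested.

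Htr2c (ENSMUSG00000041380, chromosome X, 4 coding exons), whose transcript is edited and which acts in many circuits and in the choroid plexus, was highest in hyperoxia-exposed wildtype mice. It measured 78.1, 94.4, 43.3 and 105 CPM in WT-RA and 115, 151, 112 and 102 CPM in WT-O2. It measured 46.7, 78.2 and 81.3 CPM in KO-RA and 61.7, 58.7 and 64.1 CPM in KO-O2. Every KO-O2 mouse lay below every WT-O2 mouse, whereas the genotypes overlapped in room air. Htr2c was 1.95-fold lower in knockout in hyperoxia (−0.96 ± 0.25 SE, edgeR adjusted p 0.0334), and the call was lost without any 1 of the KO-O2 mice (adjusted p 0.103 to 0.115 at log2 fold changes of −0.996 to −0.93). In room air the difference was −0.22 (95% interval −0.74 to 0.30), in wildtype mice hyperoxia gave 0.58 ± 0.22 SE (unadjusted p 0.0206, adjusted p 0.302), in knockout mice it gave −0.16 ± 0.26 SE, and the responses differed by −0.74 (95% interval −1.48 to −0.0076, unadjusted p 0.048, adjusted p 1.00). Choroid plexus markers, 8 genes led by Ttr, summed to 944 to 2462 CPM in WT-RA and 1004 to 1512 in WT-O2, to 42.7, 3330.4 and 3206 CPM in KO-RA and to 1747, 114 and 3461 CPM in KO-O2, with no marker called in any comparison and none at 0 in every library. The mouse with the lowest sum also had the lowest Htr2c in WT-RA (GSD400, 43.3 CPM), KO-RA (GSD489, 46.7 CPM) and KO-O2 (GSD494, 58.7 CPM). In WT-O2 it was otherwise: GSD404 had the lowest sum and 115 CPM of Htr2c, and GSD408 had the lowest Htr2c, 102 CPM. Htr2c of the KO-O2 mice ran only from 58.7 to 64.1 CPM over sums of 114 to 3461 CPM. The part of choroid plexus in the Htr2c difference was not tested. Without GSD494 the hyperoxia difference was −0.93 (adjusted p 0.115). Htr2c made up 32.5 to 39.3% of the length-scaled sum of the 10 receptors in WT-O2 and 17.5 to 30.7% in the other groups.

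Of the Gs-coupled receptors, Htr7 (ENSMUSG00000024798, chromosome 19, 4 coding exons), found on thalamic and hippocampal neurons, was also highest in WT-O2. Its levels were 12.4, 10.7, 7.56 and 13.6 CPM in WT-RA and 14.5, 16.8, 14.3 and 14.7 CPM in WT-O2. They were 9.92, 10.5 and 10.6 CPM in KO-RA and 9.77, 10.3 and 10.9 CPM in KO-O2. The WT-O2 mice lay above all the other 10 mice, and the remaining groups overlapped. Htr7 was 1.46-fold lower in knockout in hyperoxia (−0.55 ± 0.15 SE, edgeR adjusted p 0.0435), a call lost without GSD405 (adjusted p 0.113), without any 1 KO-O2 mouse (0.103 to 0.144) and with GSD408 taken as room air (0.113). Hyperoxia gave 0.45 ± 0.14 SE in wildtype mice (unadjusted p 0.00476, adjusted p 0.186) and −0.0013 ± 0.16 SE in knockout mice, and the responses differed by −0.45 (95% interval −0.90 to −0.0060, unadjusted p 0.0474, adjusted p 1.00). DESeq2 called the wildtype difference at an adjusted p of 0.0573, and so did edgeR without GSD401 (0.090).

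Htr4 (ENSMUSG00000026322, chromosome 18, 6 coding exons), which raises cyclic AMP in pyramidal cells, was called in no comparison. It measured 6.44, 6.30, 3.50 and 6.10 CPM in WT-RA, 7.03, 5.48, 6.09 and 4.56 CPM in WT-O2, 9.62, 5.35 and 7.79 CPM in KO-RA and 7.30, 6.42 and 7.46 CPM in KO-O2. GSD400 was the lowest of all 14 mice and GSD489 the highest, and every group overlapped its comparison groups. The log2 fold changes of knockout against wildtype were 0.44 (95% interval −0.03 to 0.91) in room air and 0.29 (−0.18 to 0.75) in hyperoxia.

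The channel subunit gene Htr3a (ENSMUSG00000032269, chromosome 9, 9 coding exons) was likewise called in no comparison. It measured 5.49, 5.67, 3.99 and 9.58 CPM in WT-RA, 7.14, 8.35, 10.02 and 7.22 CPM in WT-O2, 9.21, 8.40 and 8.93 CPM in KO-RA and 7.30, 9.02 and 11.2 CPM in KO-O2. In WT-RA 3 mice lay below every mouse of the other groups, and GSD401 lay above the KO-RA mice. The room-air genotype difference was 0.52 ± 0.23 SE (unadjusted p 0.0403, edgeR adjusted p 0.186), and without GSD401 it was 0.81 and called (adjusted p 0.0155). The gene overlaps the antisense gene Gm32335 in GENCODE M21, so the limit given for Htr1b holds here too. Of 14 interneuron markers, 2 were called higher and 4 lower in knockout in room air, and 1 higher and 2 lower in hyperoxia. The shares over all genes were 3.75% higher and 6.7% lower in room air, and 2.51% and 4.35% in hyperoxia. The interneuron markers summed to 1192 to 1581 CPM in WT-RA and 1321 to 1411 CPM in KO-RA.

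**Figure D4:**
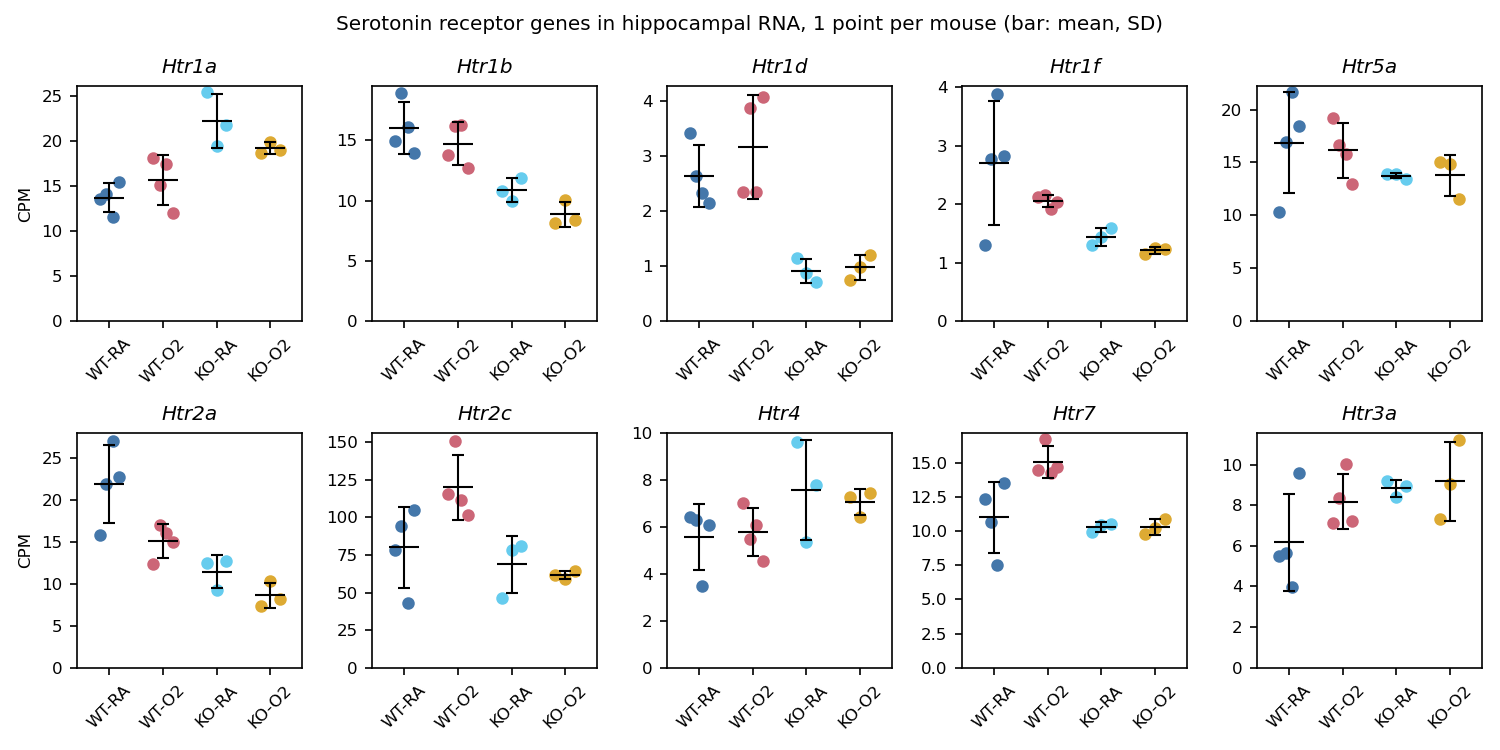
Level of each receptor gene in CPM (vertical axes, starting at 0), 1 point per mouse, with the group mean and SD. Knockout points lie below all wildtype points for Htr1b and Htr1d, the WT-O2 points of Htr7 lie above all others, and the WT-RA points of Htr1f run from 1.31 to 3.89.

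Among the WT-RA mice, GSD400, GSD401 and GSD398 each stood at the edge of several receptors at once. GSD401 was highest for Htr1a, Htr2c, Htr3a and Htr7 and lowest for Htr1b and Htr1d. GSD398 was highest for Htr1d and Htr4. GSD400 held the lowest level of Htr1a, Htr2c, Htr3a, Htr4 and Htr7 and the highest of Htr1f, Htr2a and Htr5a. Its thalamic markers summed to 220.3 CPM, the lowest of all mice, and its deep cortical and subplate markers to 638 CPM and upper cortical markers to 431 CPM, the highest of all mice. GSD398, the lowest WT-RA mouse for Htr1f, Htr2a and Htr5a, had the highest thalamic sum, 1139 CPM, and the lowest deep cortical and subplate sum, 364 CPM. Choroid plexus markers were lowest of the WT-RA mice in GSD400 (944 CPM) and highest in GSD398 (2462 CPM). Whether these sums bear on the receptor levels was not tested.

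Of the serotonin receptor genes outside the 10, Htr5b (ENSMUSG00000050534), a rodent receptor gene related to Htr5a and lost as a coding gene in humans, was called higher in knockout in both exposures. It measured 3.89, 4.58, 2.86 and 3.44 CPM in WT-RA and 7.43, 7.17 and 7.65 CPM in KO-RA, a 2.01-fold difference (1.00 ± 0.19 SE, edgeR adjusted p 0.00374). In hyperoxia it measured 3.33, 5.31, 3.65 and 2.88 CPM in WT-O2 and 5.91, 5.50 and 6.75 CPM in KO-O2 (0.67 ± 0.19 SE, adjusted p 0.0501). No knockout mouse overlapped the wildtype mice of its exposure. Htr5b overlaps the processed pseudogene Gm8217 on the opposite strand in GENCODE M21, so it shares the limit given for Htr1b. Htr6, a Gs-coupled receptor, was called in no comparison. Htr2b, with 2 to 10 counts per library, and Htr3b, with 0 to 7, did not pass the filter and were not tested.

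The genes that make, carry and break down serotonin were measured alongside the receptors. Tph2, the synthesis enzyme of raphe neurons, stood at 0.860 to 1.77 CPM, the serotonin transporter Slc6a4 at 0.0353 to 0.352 CPM, and the raphe transcription factor Fev was at 0 in 13 of 14 libraries. The raphe cell bodies lie outside the hippocampus. Of 9 genes of this list tested, 1 was called higher and 2 lower in knockout in room air, and 0 higher and 2 lower in hyperoxia. The shares over all genes were 3.75% higher and 6.7% lower in room air, and 2.51% and 4.35% in hyperoxia. The monoamine transporter Slc29a4 was higher in room air (77.2 ± 1.605 against 54.6 ± 2.84 CPM, 0.50 ± 0.08 SE on the log2 scale, edgeR adjusted p 0.00177). The organic cation transporter Slc22a3 was lower in room air (−1.24 ± 0.29 SE, adjusted p 0.013) and in hyperoxia (−1.41 ± 0.29 SE, adjusted p 0.00892). Ddc, the decarboxylase that completes the synthesis of serotonin and of dopamine, was also lower in both (−0.74 ± 0.22 SE, adjusted p 0.0497, and −0.76 ± 0.23 SE, adjusted p 0.0669). The list's median log2 fold change was −0.04 in room air and −0.01 in hyperoxia, beside −0.01 over all genes in both.

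Downstream of the receptors, 26 genes of G proteins, phospholipases, adenylyl cyclases, channels and receptor partners were listed and tested. In knockout 1 was called higher and 7 lower in room air, and 1 higher and 4 lower in hyperoxia. Of all genes, 3.75% were called higher and 6.7% lower in room air, and 2.51% and 4.35% in hyperoxia. The list medians were −0.02 and −0.01. Adcy5, the adenylyl cyclase most known from striatum, was lower in both exposures (−0.81 ± 0.12 SE, edgeR adjusted p 0.000938, and −0.77 ± 0.12 SE, adjusted p 0.00236). Gnal, a Gs-like α subunit of striatal and olfactory neurons, was lower by less (−0.48 ± 0.09 SE, adjusted p 0.0038, and −0.50 ± 0.09 SE, adjusted p 0.00413). Plcb4, a phospholipase C of thalamic and cerebellar neurons, showed the largest of the named differences (−1.50 ± 0.29 SE, adjusted p 0.00493, and −1.27 ± 0.29 SE, adjusted p 0.0182). Adar, an adenosine deaminase that edits RNA, including that of Htr2c, was lower in room air (−0.33 ± 0.07 SE, adjusted p 0.00679), and the cyclase Adcy8 in hyperoxia (−0.47 ± 0.10 SE, adjusted p 0.0136). No gene of these lists was called between exposures in either genotype, nor in the interaction.

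The genes whose log2 CPM followed a called receptor most closely over the 14 libraries, by Pearson's r, were drawn from all tested genes of at least 1 CPM on average. The libraries share their groups, so these are descriptions. Htr1d was followed most closely by Gnal (r = 0.961) and Gpr149 (0.953), Htr1a by Sec24d (0.951) and Mmd (0.937), and Htr1b by Fbxo42 (0.953) and Adar (0.924). Fbxo42 (0.923) also stood near Htr2a, after Exog (0.933). Htr2c was followed by Gabrg1 (0.967) and Gpc3 (0.956), Htr7 by Tmem255a (0.954) and Hap1 (0.942), and Htr1f by Rprm (0.967) and Bmp3 (0.964). After each group's mean was subtracted, Gpc3 (0.970) and Gabrg1 (0.926) were still among the 3 closest genes to Htr2c, whereas for Htr1a, Htr1b, Htr1d, Htr1f, Htr2a and Htr7 none of the 3 closest genes was among the first 3.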

How the data were processed

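Hippocampal RNA of 14 mice was sequenced as paired-end reads, and what the authors deposited was estimated counts for each gene, made per the methods with Kallisto on GRCm39 and summed with tximport, whose versions and count scaling, like the strand setting, are not given in the sources used here. Between 41% and 43.2% of values per library were not whole. Symbols were matched for 35825 of 36118 gene IDs.

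Counts were rounded. Genes were filtered with filterByExpr, scaled by TMM and tested in 1 fit of all libraries with edgeR 4.0.16 (R 4.3.3), with Benjamini-Hochberg adjustment over 16637 genes and calls at a log2 fold change of 0.32 in size, p 0.05 and adjusted p 0.1. Similarity used log2 CPM with a prior count of 2. Intervals are 95% intervals. The procedure was tested on simulated data. DESeq2 1.42.0, other scalings, filters and thresholds, fits of the compared groups only, GSD408 as room air and leaving out each mouse were alternatives.

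The members and lists were chosen with earlier results of these data known. Named are the receptors, the other serotonin receptor genes, up to 4 called genes per list and comparison with the smallest p, and the 3 most similar genes per called receptor, of which not all are printed. Gene models are GENCODE M21 on GRCm38, so gene coordinates are not given. Replicates are separate mice.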

Additional observations from a re-analysis of the deposited data

Results flagged for a closer look

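Htr4 in WT-RA was flagged because 1 mouse lay far from the others: GSD400 measured 3.50 CPM beside 6.10 to 6.44 CPM in the other WT-RA mice, and its gap to the nearest mouse was 0.885 of the group's range, above the critical value of 0.829 for 4 samples. Of 20 pairs of a wildtype group and a receptor examined, 1 was flagged, about what chance gives, since it flags about 1 in 20. The knockout groups of 3 mice were not examined. No receptor was called in the test of whether the response to hyperoxia differed between genotypes.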

How the results depend on the processing

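The number of receptors called in KO-RA against WT-RA was 4 to 6 and in KO-O2 against WT-O2 3 to 6 under every alternative run. Without 1 mouse these ranged from 4 to 6 and from 3 to 6, with 3 without each of the KO-O2 mice. In WT-O2 against WT-RA the 0 became 2 in DESeq2 and ranged from 0 to 2 without 1 mouse (2 without GSD398, 1 without GSD401). KO-O2 against KO-RA and the interaction stayed at 0 throughout. No called receptor changed direction. Among uncalled values, taking GSD408 as room air turned the wildtype hyperoxia log2 fold changes of Htr1b (0.0053), Htr1d (−0.036) and Htr5a (0.10) and the interactions of Htr1d (0.14) and Htr5a (−0.10). In KO-O2 against KO-RA, Htr5a turned with library size scaling (−0.0048) and Htr7 with DESeq2 (0.0047), its size factors (0.0047) and at least 10 counts in every library (0.0032). Without 1 mouse, these uncalled values crossed 0. In WT-O2 against WT-RA they were Htr4 (−0.12 to 0.15) and Htr5a (−0.23 to 0.085). In KO-O2 against KO-RA they were Htr1d (−0.066 to 0.30), Htr3a (−0.12 to 0.19), Htr4 (−0.30 to 0.10), Htr5a (−0.0625 to 0.12) and Htr7 (−0.044 to 0.036). In the genotype comparisons they were Htr7 in room air (−0.23 to 0.021) and Htr3a in hyperoxia (−0.0045 to 0.31). In the interaction they were Htr1d (−0.33 to 0.041), Htr1f (−0.087 to 0.37), Htr2a (−0.021 to 0.25), Htr4 (−0.35 to 0.051) and Htr5a (−0.078 to 0.24). The causes were not tested. Counts of 20 to 116 per library limit what can be seen for Htr1d, and of 32 to 110 for Htr1f. No paired analysis was possible because the labels give the groups no shared replicate numbers.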
